A study of Saccharomyces cerevisiae with 4 samples.

Results

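The kinase cascade of the cell wall integrity pathway was followed through 10 genes: the Rho1 exchange factors ROM1, ROM2 and TUS1, the protein kinase C gene PKC1, the kinases BCK1, MKK1, MKK2 and SLT2, the SLT2 paralogue KDX1, and the transcription factor gene RLM1. Members were the probe sets annotated to exactly 1 of these symbols, which gave 15 probe sets for 10 of the 5656 genes that were measured. TUS1 had 6 probe sets and the other 9 genes had 1 each. Saccharomyces cerevisiae of the wild type strain SEY6210 (2 arrays) was compared with pmt1 pmt2 cells made in the same background (2 arrays), each array from a separate biological sample and hybridised to a 1-colour Affymetrix yeast array. Both strains were diluted from overnight cultures to an OD of 0.1, grown to 0.45 and then for a further 3 hours, with no treatment named. The mutated genes code for enzymes of the endoplasmic reticulum that add mannose to serine and threonine of secreted and wall proteins, and the sources used here do not give the alleles.

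In budding yeast, sensors in the plasma membrane respond to stress on the cell wall and recruit exchange factors that load the small GTPase Rho1 with GTP. Rho1 activates Pkc1, which passes the signal by phosphorylation from the MAP kinase kinase kinase Bck1 to the paired MAP kinase kinases Mkk1 and Mkk2 and on to the MAP kinase Slt2, also called Mpk1. Slt2 phosphorylates the transcription factor Rlm1, whose targets include wall protein genes and genes of the pathway itself. Because the cascade works through phosphorylation, mRNA levels describe its genes and not its activity.

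The labels were checked on the mutated genes first. PMT2 (YAL023C) gave signals of 2645.5 and 2770.8 on the wild type arrays but 11.9 and 15.5 on those of the mutant. PMT1 (YDL095W) gave 1177.7 and 808.7 against 111.4 and 103.8. Both fell, PMT2 at least 103-fold against a background of 26.2 (limma adjusted p = 0.00309) and PMT1 by 3.18 on the log2 scale (limma adjusted p = 0.0382). Leaving out pmt1 pmt2 array 1 or array 2 took the adjusted p of PMT1 to 0.187 or 0.242, and leaving out array 1 took that of PMT2 to 0.0591. That background is the brightest of 19 controls on the array that target bacterial or mouse RNA. The median signal lay between 54.4 and 66.1 on the 4 arrays. The arrays numbered 1 differed from those numbered 2 in both groups: the ratio of the actin probe set at the 3′ end to that at the 5′ end was 2.99 and 3.15 on the former, and 1.38 and 1.32 on the latter. Log2 differences are therefore also given between arrays of the same number. Across all genes the median log2 change was −0.15 between the arrays numbered 1 and 0.21 between those numbered 2, against 0.027 in the fit over all arrays.

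Log2 changes varied along the pathway. SLT2 and KDX1, at its lower end, had higher signals on both pmt1 pmt2 arrays than on either wild type array. The difference was 2.87-fold for SLT2 and, against background, 1.73-fold for KDX1. PKC1, MKK1, TUS1 and ROM2 had overlapping groups. RLM1 and ROM1 were also higher on both mutant arrays, by 1.51-fold and 1.62-fold, and BCK1 and MKK2 were lower on both. No member passed limma's test across all genes (0 of 10 at adjusted p under 0.05), and 2 had an unadjusted p under 0.05, both higher. Of all genes, 0.389% passed, 7.18% had such an unadjusted p, and 5.37% had it with a higher level in pmt1 pmt2. The arrays of the groups did not overlap for 4 members that were higher and 2 that were lower, against 18.5% and 14.7% of all genes. Of these members, KDX1 exceeded background on just 1 array, so the order of its other signals is not measured. The median log2 change of the 10 was 0.12, but −0.12 between the arrays numbered 1 and 0.35 between those numbered 2, and leaving out pmt1 pmt2 array 2 turned it to −0.25. In bulk RNA, fewer cells with a transcript and less of it per cell cannot be told apart. With 2 arrays per group, the precision of every value below is limited.

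**Figure D1:**
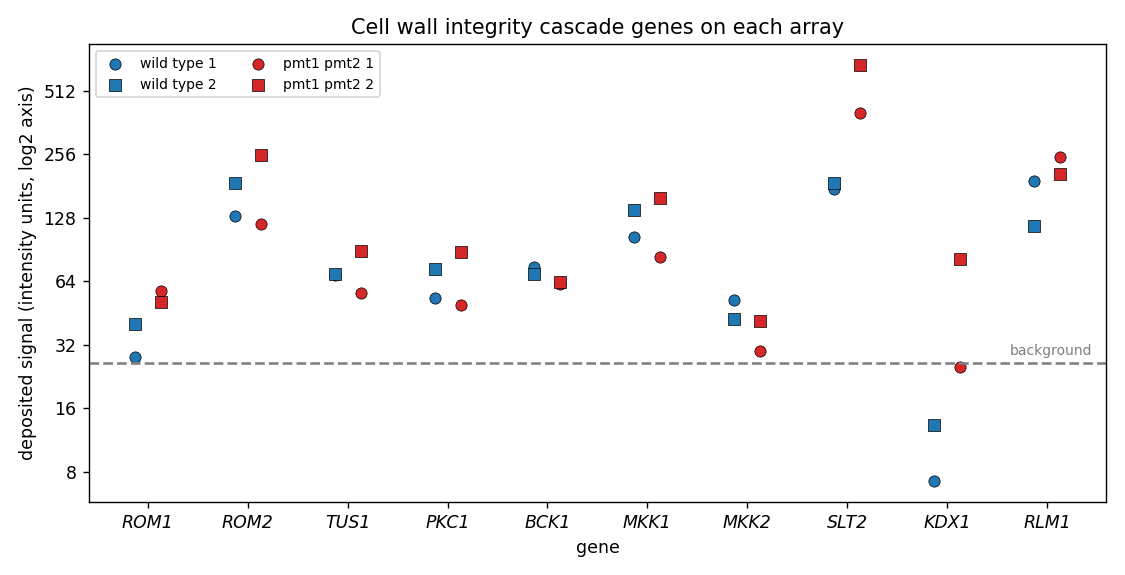
Deposited signal (intensity units, log2 axis) of the 10 cascade genes on each array, in blue for wild type and red for pmt1 pmt2, circles for the arrays numbered 1 and squares for those numbered 2. The dashed line is the background of 26.2; SLT2 reaches 398.9 and 676.6 on the pmt1 pmt2 arrays against 175.5 and 187.2 on the wild type arrays, and KDX1 lies above background on 1 array.

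Among the Rho1 exchange factors, ROM1 and ROM2 are paralogues, and TUS1 encodes a further factor. ROM1 (YGR070W) measured 28.0 and 40.1 in wild type cells and 57.6 and 50.9 in the mutant. The signal of wild type array 1 stood just above background, and both mutant signals were above both wild type signals. The log2 change was 0.69 ± 0.37 (SE; 95% interval −0.21 to 1.60, limma adjusted p = 0.872), made up of 1.04 between the arrays numbered 1 and 0.34 between those numbered 2. ROM2 (YLR371W) measured 129.7 and 186.2 in wild type cells and 119.9 and 252.8 in the mutant. Its mutant arrays held both the lowest and the highest value, so the groups overlapped. The log2 change of ROM2 was 0.16 ± 0.48 (SE; 95% interval −1.01 to 1.34), with opposite signs between the arrays numbered 1 (−0.11) and those numbered 2 (0.44). TUS1 (YLR425W) showed the same arrangement, at 68.3 and 69.3 in wild type cells and 56.0 and 88.5 in the mutant by its brightest probe set. The wild type arrays were nearly equal and lay between the mutant values. The log2 change of TUS1 was 0.033 ± 0.39 (SE), and its sign turned under 2 other scalings (−0.043 by quantile normalization, −0.060 by centring). The 5 TUS1 probe sets not used were dim, with signals from 0.8 to 47.9, and only 2 of their 20 signals exceeded background, both on pmt1 pmt2 array 2.

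PKC1 (YBL105C), the only protein kinase C gene of this yeast, measured 53.5 and 72.9 in wild type cells and 49.3 and 88.2 in the mutant. The mutant values again enclosed those of wild type. Its log2 change was 0.078 ± 0.43 (SE; 95% interval −0.98 to 1.13, limma adjusted p = 0.994) and was −0.014 after centring. The interval holds a doubling as well as a fall of nearly the same size, so the arrays do not show that PKC1 was equal in both strains.

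The upper kinases of the MAP kinase module had fitted log2 changes below 0, none past the test. BCK1 (YJL095W), the MAP kinase kinase kinase, measured 74.9 and 69.4 in wild type cells and 62.3 and 63.1 in the mutant. Both mutant arrays were lower, by a log2 change of −0.20 ± 0.34 (SE; 95% interval −1.03 to 0.62, limma adjusted p = 0.994). It was −0.27 between the arrays numbered 1 and −0.14 between those numbered 2. MKK1 (YOR231W) measured 103.3 and 138.8 in wild type cells and 83.1 and 158.3 in the mutant. Its groups overlapped, and the log2 change was −0.062 ± 0.45 (SE), with −0.31 between the arrays numbered 1 and 0.19 between those numbered 2. Without pmt1 pmt2 array 1 it was 0.40. MKK2 (YPL140C), the paralogue of MKK1, measured 52.1 and 42.3 in wild type cells and 29.7 and 41.3 in the mutant. Both mutant values lay below both wild type values, although mutant array 2 lay just 1 signal unit under the lower wild type array. The signal of mutant array 1 stood just above the background of 26.2. The log2 change of MKK2 was −0.42 ± 0.37 (SE; 95% interval −1.33 to 0.49, limma adjusted p = 0.992), of which −0.81 between the arrays numbered 1 and −0.035 between those numbered 2.

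SLT2 (YHR030C), the MAP kinase itself, had the largest fitted log2 change of the 4 kinases of the module. It measured 175.5 and 187.2 in wild type (181 ± 8.27, SD, n = 2) and 398.9 and 676.6 in pmt1 pmt2 (538 ± 196, SD, n = 2). Both mutant arrays were more than 2-fold above both wild type arrays, and they differed from each other more than the wild type arrays did. The log2 change was 1.52 ± 0.40 (SE; 95% interval 0.54 to 2.50), with limma adjusted p = 0.352 and an unadjusted p of 0.00895. It was 1.19 between the arrays numbered 1 and 1.85 between those numbered 2, and leaving out pmt1 pmt2 array 2 or array 1 gave 1.14 or 1.90. A log2 change at least as high was found in 155 genes, 2.74% of all. Signals at least 2-fold higher within both array numbers were found for SLT2 and, as deposited, for 3.29% of all genes. KDX1 also met that fold, but between the arrays numbered 1 both of its signals were under background, so it is not counted.

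KDX1 (YKL161C), also called MLP1, encodes a paralogue of Slt2 that acts with Rlm1. It measured 7.2 and 13.3 in wild type cells and 25.2 and 81.7 in the mutant. Only pmt1 pmt2 array 2 exceeded background, and the signal of pmt1 pmt2 array 1 lay just under it. Against background the ratio was 1.73-fold, computed from both mutant signals as deposited. Since that of array 1 lay under background, this ratio is no strict lower bound. By the deposited values, most of them under background, the log2 change was 2.21 ± 0.64 (SE; 95% interval 0.65 to 3.78, limma adjusted p = 0.427). Leaving out pmt1 pmt2 array 2 gave 1.36, and leaving out array 1 gave 3.06.

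RLM1 (YPL089C) encodes the transcription factor of the MADS-box family at the end of the cascade. It measured 190.5 and 117.1 in wild type cells and 246.6 and 205.7 in the mutant. Both mutant arrays were higher, but the gap between the lowest mutant and the highest wild type array was smaller than the gap between the wild type arrays. The log2 change was 0.59 ± 0.40 (SE; 95% interval −0.38 to 1.57, limma adjusted p = 0.930), with 0.37 between the arrays numbered 1 and 0.81 between those numbered 2.

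**Figure D2:**
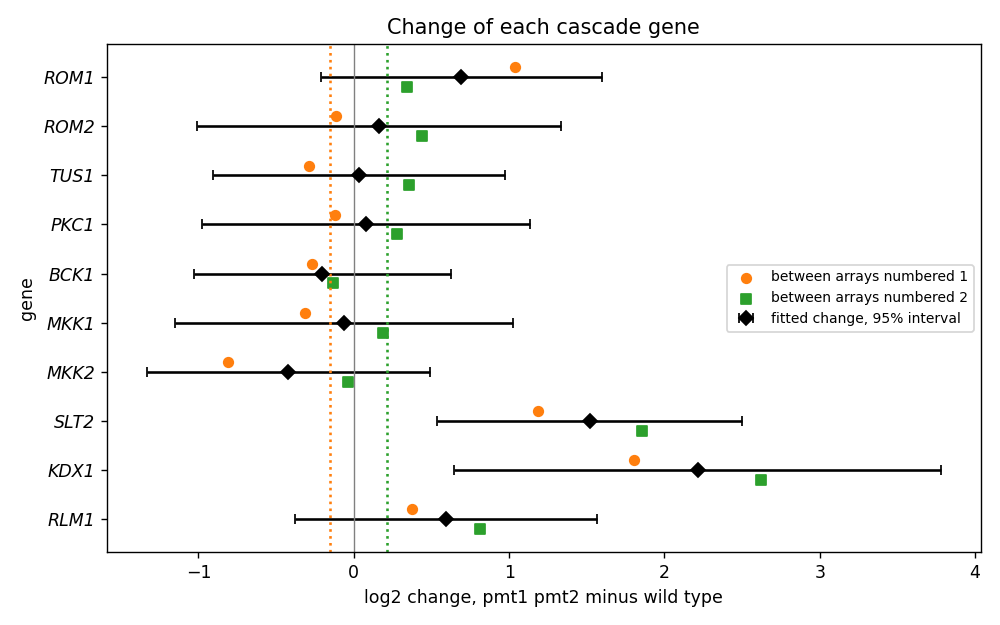
Log2 change (pmt1 pmt2 minus wild type) of each cascade gene, with the fitted value and its 95% interval in black and the difference between same-numbered arrays in orange (numbered 1) and green (numbered 2). Dotted lines give the median of all genes for each number (−0.15 and 0.21); the intervals of SLT2 (0.54 to 2.50) and KDX1 (0.65 to 3.78) lie above 0, and the other 8 include it.

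Within each strain the members differed between the array numbers. Array 2 was above array 1 for 7 of 10 members in wild type and for 8 of 10 in pmt1 pmt2. The median log2 gap between these arrays was 0.26 in wild type and 0.71 in pmt1 pmt2 for the members, and 0.010 and 0.39 for all genes. Between same-numbered arrays, 4 members were higher in pmt1 pmt2 within both numbers (ROM1, SLT2, KDX1 and RLM1), 2 were lower within both (BCK1 and MKK2), and 4 had opposite signs. On the arrays numbered 1 both KDX1 signals were under background, so KDX1 is counted there by deposited values only. Among all genes 31.9% were higher within both, 31.0% lower within both and 36.6% opposite. The ratio of the actin probe sets moved with the same array number, and its part in these gaps was not tested.

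The cascade holds 3 pairs of paralogues, and the log2 ratio within an array, from which array-wide scaling drops out, was compared between the strains. The mean log2 ratio of ROM1 to ROM2 was higher in pmt1 pmt2 by 0.53 and that of MKK1 to MKK2 by 0.36. Both ratios overlapped between the groups. ROM1 to ROM2 stood at −2.212 and −2.215 in wild type and at −1.058 and −2.312 in pmt1 pmt2, where array 2 was the lowest. MKK1 to MKK2 stood at 0.987 and 1.714 against 1.484 and 1.938. For KDX1 to SLT2 the deposited values gave a difference of 0.69, which is no measured ratio, since KDX1 was under background on 3 of 4 arrays. An exact permutation test of 2 arrays against 2 (two-sided, 3 pairs) gave p = 0.667 for KDX1 and SLT2, 1 for ROM1 and ROM2, and 0.667 for MKK1 and MKK2. The smallest p this design allows is 0.333, so no pair could pass. The KDX1 to SLT2 value turned to −0.015 when log2 values under 4 were raised to 4.

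Genes that act before the cascade had log2 changes on both sides of 0. Of the 6 wall sensors (SLG1, WSC2, WSC3, WSC4, MID2 and MTL1), 0 passed limma's test, and the median log2 change was 0.097. At an unadjusted p under 0.05, 1 sensor was lower, as were 102 of all 5656 genes. WSC4 (YHL028W) measured 145.3 and 120.9 in wild type cells and 46.1 and 62.7 in the mutant, lower on both mutant arrays (log2 change −1.30 ± 0.37 (SE), limma adjusted p = 0.417). WSC2 measured 392.2 and 612.3 against 608.0 and 1220.3, and MID2, a sensor of another family, 176.9 and 242.3 against 241.8 and 361.8. Both overlapped between the groups, and MTL1 was under background on all arrays. RHO1, the GTPase gene itself, measured 1047.6 and 1292.8 in wild type cells and 1186.4 and 1600.6 in the mutant, also overlapping. Of RHO1 and its 5 regulators, 0 passed, with a median of 0.24. At limma's unadjusted p under 0.05, 1 was higher, as were 5.37% of all genes. That gene was BAG7, for a GTPase-activating protein, whose signals of 1.4 and 2.6 against 3.4 and 18.8 were all under background, so no fold is given. SAC7, its paralogue, measured 52.5 and 80.7 against 65.9 and 108.0. Of the 5 Pkh and Ypk kinase genes, which encode kinases acting on or beside Pkc1, 0 passed limma's test (also 0 without adjustment) and the median was 0.15. YPK2 measured 25.0 and 25.8 in wild type cells, under background. In the mutant it reached 34.0 and 62.6, a difference of at least 1.76-fold. PKH3 (117.6 and 115.5 against 88.5 and 107.9) was lower on both mutant arrays, and YPK1 (353.1 and 328.4 against 342.4 and 433.7) overlapped.

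Genes that act on or after Slt2 formed 3 lists. Of the 4 phosphatase genes, PTP2, PTP3 and MSG5 were higher on both mutant arrays than on either wild type array, as were 18.5% of all genes. None passed limma's test, and 1 was higher at an unadjusted p under 0.05, as were 5.37% of all genes. SDP1, for a dual-specificity phosphatase, measured 20.4 and 14.2 in wild type cells and 10.2 and 57.0 in the mutant, above background on 1 array, so no change is read from it. PTP2, for a tyrosine phosphatase that acts on Hog1 and Slt2, measured 110.9 and 42.1 in wild type cells and 247.5 and 185.2 in the mutant (log2 change 1.65 ± 0.54 (SE), limma adjusted p = 0.520). That change was 0.87 by the mean of the PTP2 probe sets, and 0.95 or 2.35 when wild type array 2 or array 1 was left out. PTP3 measured 29.8 and 39.4 against 43.3 and 70.9, and MSG5, for a dual-specificity phosphatase, 91.7 and 82.9 against 117.6 and 119.1. Of the 4 nuclear and scaffold partners (SWI4, SWI6, SPA2 and SMI1), 0 passed limma's threshold (0 also without adjustment). SWI4 was under background on all arrays. SWI6, a subunit of the cell cycle factor that Slt2 phosphorylates, measured 66.6 and 68.7 against 55.1 and 60.6. SMI1, whose product binds Slt2, measured 157.7 and 132.2 against 123.2 and 118.9. SPA2, for a scaffold at sites of polarised growth, measured 74.3 and 82.4 against 50.9 and 84.4, and its log2 change of −0.26 was 0.052 by the mean of its probe sets.

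All 16 Slt2 and Rlm1 outputs had a fitted log2 change above 0, as had 2968 of all 5656 genes. The median of the 16 was 1.11 against 0.027 for all genes. FKS1 stood at 0.007 ± 0.41 (SE), with overlapping groups and opposite signs between same-numbered arrays (−0.50 and 0.52). For 13 of 16 both mutant arrays were above both wild type arrays, as for 18.5% of all genes. NCW2 and PIR3 rose by limma's test. The 14 remaining outputs missed its threshold, and 8 of the 16 had an unadjusted p under 0.05 with a higher level, as had 5.37% of all genes. NCW2 (YLR194C), a wall protein gene, measured 196.6 and 232.4 in wild type cells and 1822.6 and 2156.6 in the mutant (9.28-fold, a log2 change of 3.21 ± 0.35 (SE), limma adjusted p = 0.0364). PIR3 (YKL163W), for an O-mannosylated wall protein, measured 36.4 and 60.2 against 769.3 and 1797.0 (25.1-fold, limma adjusted p = 0.0364). Without pmt1 pmt2 array 1 or array 2 the adjusted p was 0.144 or 0.224 for NCW2 and 0.0958 or 0.213 for PIR3, whose log2 change moved from 4.65 to 5.26 or 4.04. GSC2, for a glucan synthase subunit, measured 230.7 and 246.7 against 1257.7 and 1342.7 (limma adjusted p = 0.0746). By the mean of its probe sets the log2 change went from 2.446 to 2.345, with limma adjusted p = 0.609. In 4 of 14 alternatives the adjusted p of GSC2 was under 0.05. The list was drawn up with earlier results of these data known and is not independent evidence of its direction.

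The kinases of other MAP kinase cascades give a comparison for the kinases of the integrity pathway. Of 6 genes of the osmotic stress cascade (SSK2, SSK22, STE11, PBS2, HOG1 and RCK2), 0 passed limma's test (also 0 without adjustment), and log2 changes ran from −0.22 to 0.66 around a median of 0.26. SSK22, for a MAP kinase kinase kinase, measured 34.6 and 44.6 against 54.7 and 70.3, and PBS2, for the MAP kinase kinase, 70.3 and 34.7 against 60.0 and 98.1. The MAP kinase gene HOG1 had a log2 change of 0.25. Of 5 genes of the mating cascade (STE20, STE11, STE7, FUS3 and KSS1), 0 passed limma's test (also 0 without adjustment), and log2 changes ran from −0.45 to 0.27. STE11, for a MAP kinase kinase kinase shared by both cascades, measured 53.9 and 41.9 against 51.6 and 63.8. The MAP kinase gene FUS3 measured 91.1 and 142.8 against 52.3 and 133.6, a log2 change of −0.45 that was 0.31 by the mean of its probe sets. STE7, for the MAP kinase kinase, measured 65.1 and 66.7 against 63.6 and 63.3. Whether the change of SLT2 differs from that of HOG1 or FUS3 was not tested.

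**Figure D3:**
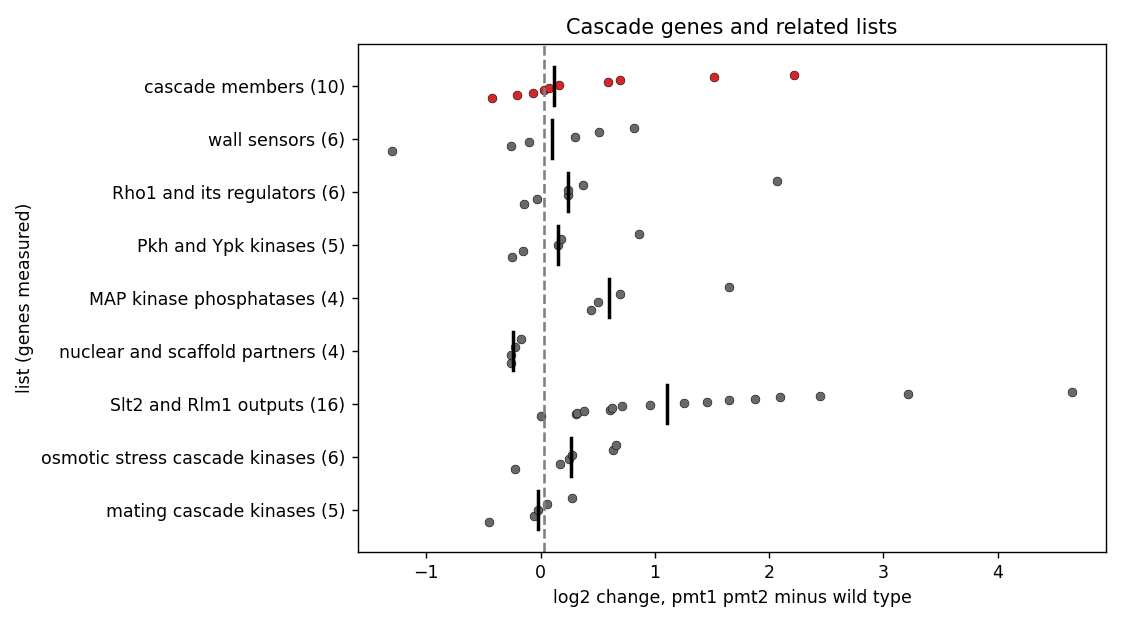
Log2 change (pmt1 pmt2 minus wild type) of the 10 cascade genes (red) and of the genes of 8 related lists (grey), 1 point per gene, with the median of each list as a black bar and the median of all genes (0.027) as a dashed line. The 16 Slt2 and Rlm1 outputs have a median of 1.11 and lie above 0, FKS1 by only 0.007. The cascade genes spread from −0.42 to 2.21.

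The genes whose values were most like those of SLT2 were sought among 3763 genes whose brighter group averaged 6 or more in log2 units, by the Euclidean distance between log2 deviations from the wild type mean over the 4 arrays. The closest was MET14, for the adenylylsulfate kinase of sulfate assimilation, at a distance of 0.10. It measured 60.9 and 59.0 in wild type cells and 130.0 and 227.2 in the mutant. The next were UBC5, for a ubiquitin-conjugating enzyme (0.12), SPS19, for a peroxisomal dienoyl-CoA reductase (0.12), ATG33, for a mitochondrial protein needed for mitophagy (0.14), and YGR161W-C (0.18). Their log2 changes lay between 1.44 and 1.58, and limma's adjusted p between 0.291 and 0.453. With 4 arrays such a likeness says only that log2 change and spread were similar, whatever the signal level.

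On the chromosomes, KDX1 lies 2 places from PIR3 and 3 from PIR1, both of them wall protein genes of the output list, with YKL162C between KDX1 and PIR3. PIR1 measured 2134.6 and 2822.9 in wild type cells and 2541.7 and 3677.4 in the mutant, with overlapping groups. YKL162C stayed under background on all arrays (10.9, 9.5, 11.2 and 21.2). On the other side of KDX1, ELF1 measured 272.9 and 375.7 against 276.5 and 418.1. The groups of ELF1 overlapped as well. Beside RLM1, YPL088W measured 26.4 and 38.1 against 77.0 and 188.6 (log2 change 1.93, limma adjusted p = 0.372). The YPL088W signal of wild type array 1 stood just above the background of 26.2. Beside BCK1, KHA1, for a potassium and proton antiporter, measured 170.2 and 133.1 against 280.0 and 368.1 (limma adjusted p = 0.560). Near ROM1, GID10 measured 2.2 and 4.3 against 9.2 and 10.4, all under background, so no fold is given. Neighbours up to 3 places from each member were looked at after the values were seen. Of 58 measured, 1 passed limma's test (PIR3) and 4 had an unadjusted p under 0.05, a share of 6.9% against 7.18% of all genes.

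**Figure D4:**
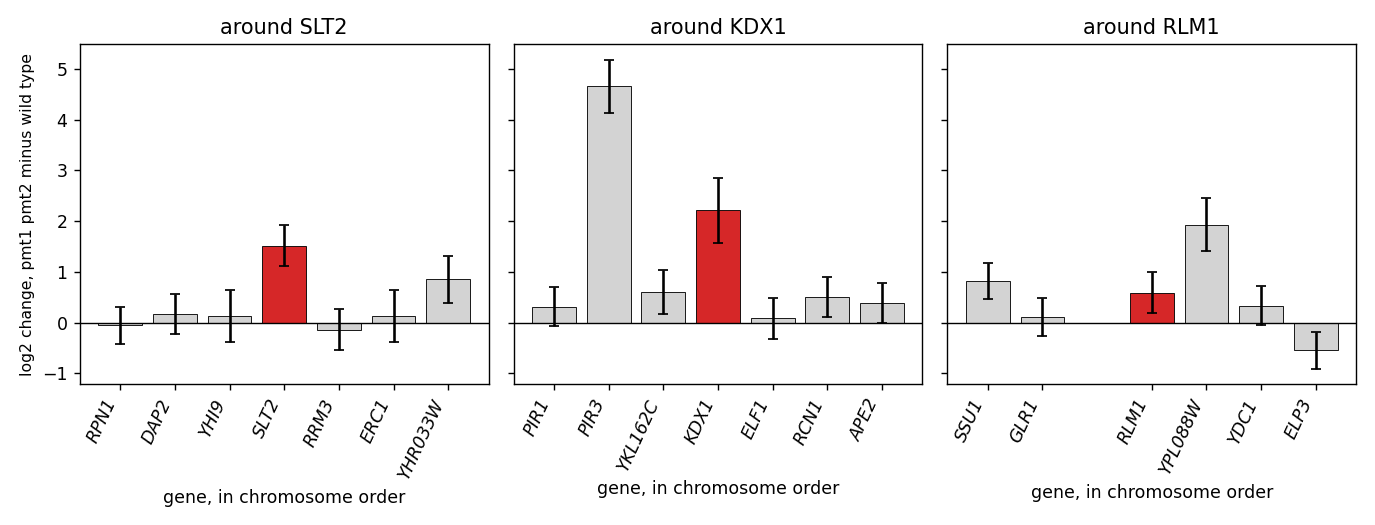
Log2 change (pmt1 pmt2 minus wild type, bars; error bars are the SE of limma) of SLT2, KDX1 and RLM1 (red) and of the measured genes up to 3 places to either side (grey) in chromosome order; an empty place had no measured gene. PIR3 (4.65) stands 2 places from KDX1 (2.21), whose values, like those of YKL162C, are mostly or wholly under background.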

How the data were processed

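The deposited values are probe set signals (intensity, linear units) for 9335 probe sets on 4 arrays. GCRMA appears, with no version, in the submitters' processing notes. Zeros (5 to 11 per array) and unequal array medians are unusual for it, so the method that made the signals, and any scaling of the arrays to each other, are uncertain. Signals were log2-transformed after zeros were replaced by 0.1, and were not normalized further. Probe sets naming 1 gene (6504) were kept, those naming several genes (328) or none (2503) were left out, and the brightest probe set stood for each of 315 genes with several. All 5656 genes were found in the R64 annotation, used only for names and neighbours. No build is named for the arrays, so no coordinates are given.

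The strains were compared in limma (version 3.58.1, R 4.3.3; lmFit, eBayes, two-sided, Benjamini-Hochberg over 5656 genes, threshold 0.05), which leaves 2 residual degrees of freedom before moderation. The fit was tested on simulated data. A fold is the ratio of geometric means. Where the lower group lay under background (26.2), it was computed against that level, with the higher group as deposited. It is a lower bound only where all signals of the higher group exceeded background, which those of KDX1 did not. Members, lists and alternatives were chosen with earlier results of these data known. Named beside the members were PMT1 and PMT2, up to 3 genes of each list by smallest p, and the 5 genes closest to SLT2. Genes named beyond this were chosen after their values were seen (HOG1, MTL1, SDP1, SWI4, FKS1 and the neighbours of the members). A planned search of promoter motifs was not done. Alternatives were quantile normalization, centring on the array median, a minimum mean log2 of 4 or 6, raising log2 values under 4 to 4, limma-trend, robust eBayes, the mean of a gene's probe sets, every probe set tested, a replicate block for the array number, and leaving out each array.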

Additional observations from a re-analysis of the deposited data

How the results depend on the processing

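The titles number the arrays 1 and 2 in both groups but do not say that the numbers pair them, and across genes the deviations of same-numbered arrays from their group means correlated at 0.646 (1 value, from 2 arrays a group). With the number as a replicate block, 171 genes (3.02%) passed limma's test in place of 22, 2 of the 10 cascade members passed in place of 0 (SLT2, adjusted p = 0.0442, and KDX1, adjusted p = 0.0128), and 9 list genes in place of 2. Under the other alternatives the count of cascade members stayed at 0. Over all alternatives limma's adjusted p ran from 0.0442 to 0.959 for SLT2, from 0.0128 to 0.974 for KDX1, from 0.00202 to 0.307 for PMT1, from 8.69e-11 to 0.120 for PMT2, from 0.00202 to 0.307 for NCW2 and from 1.10e-05 to 0.339 for PIR3. Over all genes, quantile normalization left 2 calls, centring 14, a minimum of 6 left 38, raised low values 1 and testing every probe set 0 (510 at limma's unadjusted p under 0.05), and the count ran from 0 to 62 when 1 array was left out. Dropping pmt1 pmt2 array 1 gave 0 (612 unadjusted), dropping pmt1 pmt2 array 2 gave 1, and dropping wild type array 1 or 2 gave 62 or 44. Calls among the list genes numbered 0 with quantile normalization, 1 with centring, 4 with a minimum of 6, 0 with raised low values, 0 over every probe set, and 0 when either pmt1 pmt2 array was dropped. The causes were not tested.

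SLT2, KDX1, RLM1, ROM1, BCK1 and MKK2 kept their direction in every alternative in which they were tested; KDX1, ROM1 and MKK2 fell out at a minimum of 6. Quantile normalization gave TUS1 a log2 change of −0.043, and centring gave −0.060 for TUS1 and −0.014 for PKC1. With 1 array left out, the log2 change ran from −0.37 to 0.70 for ROM2, from −0.30 to 0.36 for TUS1, from −0.34 to 0.50 for PKC1 and from −0.53 to 0.40 for MKK1. It ran from −0.62 to 0.11 for SPA2 and from −1.13 to 0.23 for FUS3, which by the mean of probe sets were 0.052 and 0.31. The KDX1 to SLT2 difference was −0.015 with low values raised. Dropping pmt1 pmt2 array 2 or 1 moved the median of all genes to −0.14 or 0.24. The median of the 10 members ran from −0.25 to 0.48 with 1 array left out, and was also below 0 without wild type array 1 (−0.037). Signals near or under background, as for KDX1, limit what can be read from fold changes.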
